A study of Mus musculus with 12 samples.

Results

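Memantine-treated wild-type mice (WT-Mem) were compared with vehicle-treated Shank2-knockout mice (KO-Veh), a pair of groups that differ in genotype and in treatment at the same time. The labels and methods name 3 mice in each group, and the comparison is called WT-M/KO-V. Genes entered where their mean over these 6 mice reached 10, which are 17648 of the 19312 genes in the table. Differences are WT-Mem minus KO-Veh on the log2(value + 1) scale, so a positive value is higher in WT-Mem. The study set up this comparison to ask whether early memantine in WT mice gives a transcriptome like that of Shank2 deletion. Effects of genotype and of treatment cannot be told apart within it.

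All mice were male, of the C57BL/6N strain in the labels, and were sampled at postnatal day (P) 25. KO mice lack exons 6 and 7 of both Shank2 copies in every cell, and the methods describe individual, unpooled brains. WT-Mem mice received memantine hydrochloride at 20 mg/kg by mouth, 2 times a day from P7 to P21, and KO-Veh mice received its vehicle of 0.1% saccharin, so 4 days without drug preceded sampling. The other groups were WT mice given vehicle (WT-Veh) and KO mice given memantine (KO-Mem), again with 3 mice each. The labels give whole brain as tissue, whereas the methods describe forebrain from which cerebellum and brain stem had been removed.

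SHANK2 is a scaffold protein of the postsynaptic density of excitatory synapses, where it links glutamate receptors, through SAPAP and PSD-95 proteins, to Homer and the actin cytoskeleton. Memantine enters the open channel of the NMDA-type glutamate receptor and blocks it with fast kinetics. NMDA receptor activity lets calcium into the neuron, which drives the transcription of immediate early genes such as Fos and Arc, and the receptor's subunits, its scaffolds and these calcium-responsive genes were therefore looked at together.

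One read corresponded to a value of 0.91 to 1.13 in the 6 mice, from 67 to 86 genes were listed at 0, and the pairwise correlation of the log2 values over 14241 genes ran from 0.981 to 0.992. The library of KO-Veh replicate 3 stood apart by cerebellar markers. Gabra6, the GABA-A subunit of cerebellar granule cells, had a value of 254 there against 1.09 in KO-Veh replicate 1 and 0 in the other 4 mice. Cbln3, a granule cell gene, had 745 against 12.1 to 19.8 in the other mice, and Pcp2, a Purkinje cell gene, had 380 against 6.97 to 19.5. The summed value of the 9 cerebellar markers was 6117 to 6434 in WT-Mem against 5727 to 9342 in KO-Veh. WT-Mem replicate 3 stood apart by a higher level of ribosomal and respiratory chain genes and a lower level of glutamate receptor and chromatin genes. Values without these mice are given beside the lists they move.

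Of the 17648 genes, 4 differed at an adjusted p under 0.05 (limma with Benjamini-Hochberg adjustment), which is 0.0227% of those tested. Shank2 and Bc1 rose in WT-Mem relative to KO-Veh, and Gm26793 and Itpr3 fell. At an unadjusted limma p under 0.05, 831 genes were higher in WT-Mem (4.71%) and 746 were lower (4.23%). The values of the groups did not overlap for 1365 genes with WT-Mem on top (7.73%) and for 1258 with WT-Mem below (7.13%). Over all genes tested the median difference was -0.0006, 49.8% of genes were higher in WT-Mem, and the median absolute difference was 0.10.

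**Figure D1:**
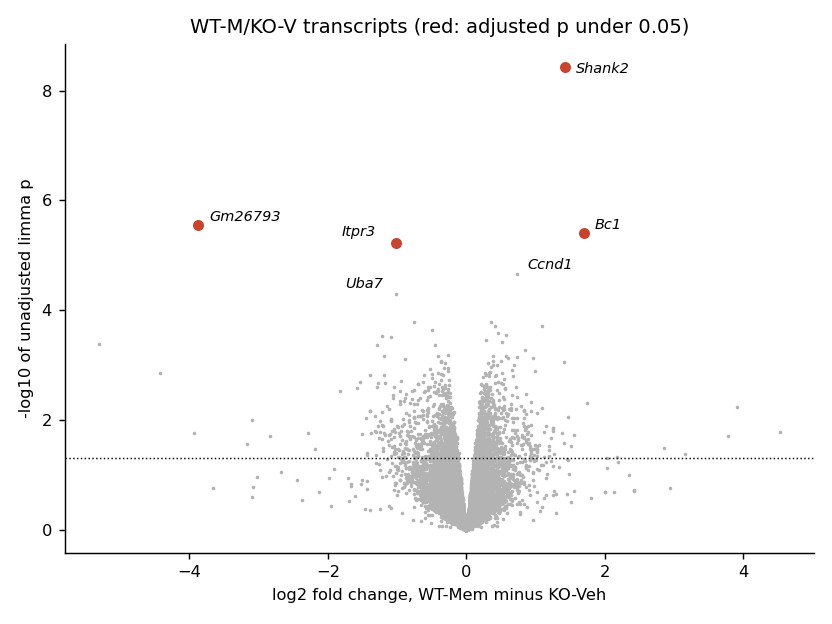
Each point is 1 of the 17648 genes tested, with the log2 fold change of WT-Mem minus KO-Veh on the x axis and -log10 of the unadjusted limma p on the y axis. The dotted line marks the threshold of 0.05, red points are the 4 genes with adjusted p under 0.05, and Ccnd1 and Uba7 are the next in order of p.

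Shank2 (ENSMUSG00000037541, GRCm38 chr7:144001928-144424494, plus strand), the targeted gene, had values of 7936, 8548 and 7156 in WT-Mem against 3053, 3006 and 2723 in KO-Veh. The KO mice thus kept a level of reads from the undeleted exons, and all WT mice were far above them. The difference was 1.43 ± 0.08 (moderated SE, limma adjusted p = 6.59e-05), or 2.69-fold when converted from log2. WT-Veh mice lay at 7427 to 8325 and KO-Mem mice at 2706 to 3178, so the labels of genotype held in all 12 mice. The paralogs did not pass the test: Shank1 differed by 0.09 ± 0.10 and Shank3 by 0.10 ± 0.06.

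Bc1 (ENSMUSG00000115783, chr7:144914470-144914637, plus strand) is a short non-coding RNA made by RNA polymerase III, which is transported into dendrites and binds translation initiation factors. Its transcript in GENCODE M21 is 168 bases long and is shown because an internal A-rich stretch, in capitals (bases 77 to 136, 49 of 60 bases are A, the longest stretch with at least 80% A), can pair with poly-T beads although this RNA carries no poly-A tail added by the mRNA machinery.
Bc1: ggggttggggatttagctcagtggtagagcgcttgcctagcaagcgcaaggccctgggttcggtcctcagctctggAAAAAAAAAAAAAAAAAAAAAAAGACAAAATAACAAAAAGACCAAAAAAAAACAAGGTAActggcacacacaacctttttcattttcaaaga
Bc1 had values of 392, 467 and 641 in WT-Mem against 133, 138 and 183 in KO-Veh, with no overlap. The difference was 1.70 ± 0.19 (limma adjusted p = 0.0226), or 3.25-fold when converted from log2. The other groups showed 259 to 522 in WT-Veh and 135 to 205 in KO-Mem. Bc1 is the source of the rodent ID family of short interspersed repeats, so reads of repeat copies within other transcripts could be assigned to it, and its level is uncertain to that extent.

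Gm26793 (ENSMUSG00000096999, chr7:144894560-144897461, minus strand) is annotated as an antisense RNA that overlaps Fgf15 on the opposite strand. It had values of 2.73, 3.27 and 1.02 in WT-Mem, about the worth of 1 to 3 reads, and of 47.6, 45.6 and 43.2 in KO-Veh. The RNA was thus close to the detection limit in WT-Mem and present in every KO-Veh mouse. The difference was -3.87 ± 0.41 (limma adjusted p = 0.0226), and its size depended on the pseudocount, with -2.79 at a pseudocount of 5 and -4.12 at 0.5. WT-Veh mice showed 2.11 to 3.89 and KO-Mem mice 49.0 to 58.7. The methods do not describe the library kit as marking strand, so reads of Fgf15 and of Gm26793 may not be told apart where they overlap. Fgf15 itself was not among the genes tested.

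Itpr3 (ENSMUSG00000042644, chr17:27057304-27122223, plus strand) encodes the type 3 inositol trisphosphate receptor, a calcium release channel of the endoplasmic reticulum (ER). Its values were 248, 227 and 223 in WT-Mem against 513, 404 and 504 in KO-Veh. Every KO-Veh mouse was above every WT-Mem mouse, and the difference was -1.02 ± 0.12 (limma adjusted p = 0.0268). KO-Mem mice lay at 359, 301 and 243, all below KO-Veh, and the lowest of them was within the range of the WT-Veh values of 232, 268 and 245. The other receptors of the family had smaller values that did not pass the test, with -0.07 ± 0.12 for Itpr1 and 0.00 ± 0.09 for Itpr2.

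The 4 calls did not rest on the same mice. Shank2 passed in each of the 6 fits that left out 1 mouse, at 1.37 to 1.49. Bc1 was lost without WT-Mem replicate 2 or without any 1 KO-Veh replicate (limma adjusted p = 0.0569 to 0.101, differences of 1.62 to 1.85). Gm26793 was lost without any 1 KO-Veh replicate (limma adjusted p = 0.0737 to 0.16, differences of -3.90 to -3.83). Itpr3 was lost in every fit that left out 1 mouse except the one without KO-Veh replicate 2 (limma adjusted p = 0.0759 to 0.196, differences of -1.06 to -0.95). Without KO-Veh replicate 3, the library with cerebellar markers, Shank2 alone was called. The differences in that fit were 1.85 for Bc1, -3.90 for Gm26793 and -0.97 for Itpr3, close to those over all 6 mice.

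**Figure D2:**
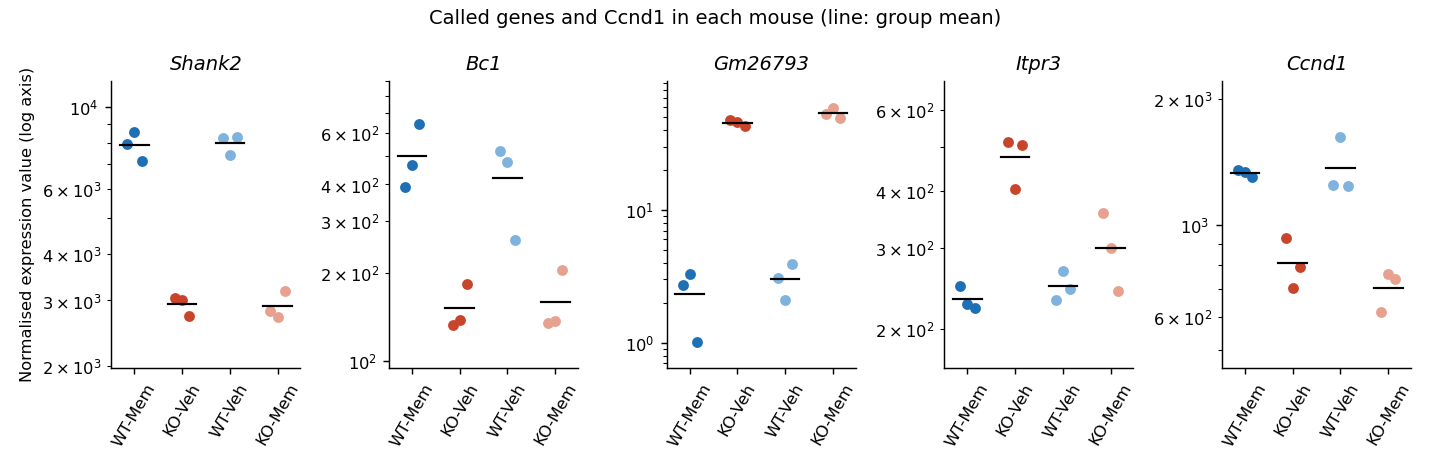
Normalised expression values (log axis) of the 4 called genes and of Ccnd1 in each of the 12 mice, with 1 point per mouse and a line at the group mean. Shank2, Bc1 and Ccnd1 are lower and Gm26793 higher in all 6 KO mice than in all 6 WT mice, whereas the KO-Mem mice for Itpr3 (243 to 359) reach down to the WT-Veh values (232 to 268).

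Both Bc1 and Gm26793, and the gene with the next smallest p, lie in one stretch near Shank2. Gm26793 starts 470.1 kb and Bc1 490.0 kb beyond the end of Shank2, and Ccnd1 (chr7:144929931-144939925) starts 505.4 kb beyond it. Ccnd1 encodes cyclin D1, which drives entry into the cell cycle. It had 1354, 1340 and 1298 in WT-Mem against 931, 706 and 792 in KO-Veh, without overlap, but its difference of 0.73 ± 0.10 did not pass the test (limma adjusted p = 0.0791). It passed without KO-Veh replicate 1 (0.83, limma adjusted p = 0.0322). LTO1 overlaps Ccnd1 on the opposite strand and differed by -0.14 ± 0.12, which did not pass the test.

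Of 27 genes tested within 1 Mb of Shank2, 6 had an unadjusted limma p under 0.05, against 4.71% higher and 4.23% lower over all genes. The groups did not overlap for 4 genes with WT-Mem on top and 3 with WT-Mem below, against 7.73% and 7.13% of all genes. The 1 Mb window was not planned, and it takes in Bc1, Gm26793 and Ccnd1, already picked by their small p. Its counts are partly fixed by that choice and are no independent result about the region. Mrgprf, an orphan G protein-coupled receptor gene 876.3 kb away, had 29.8, 32.3 and 34.4 in WT-Mem against 61.0, 72.9 and 75.7 in KO-Veh, a difference of -1.09 ± 0.20. Tpcn2, an endolysosomal cation channel gene, differed by 0.42 ± 0.15 and Tnfrsf23, a decoy receptor gene, by 0.53 ± 0.23. The direct neighbours showed smaller values, with 0.01 ± 0.06 for Cttn, 11.2 kb beyond Shank2, and 0.19 ± 0.08 for Dhcr7, at -153.5 kb, where the minus sign means before its start. None of these passed the adjusted threshold. Among all 282 genes tested within 20 Mb, 2 were called, 13 were higher (4.61%) and 10 lower (3.55%) at an unadjusted p under 0.05, near the 4.71% and 4.23% of all genes, and the median difference was -0.01. Whether DNA of another strain remains around the deletion in the KO mice was not tested.

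**Figure D3:**
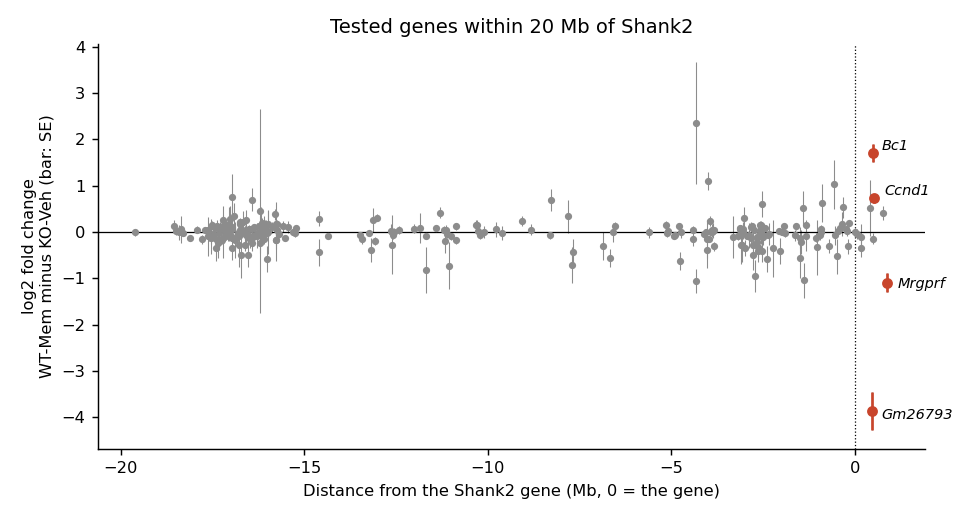
Log2 fold change of WT-Mem minus KO-Veh (y axis, bars are SE) of the 282 tested genes within 20 Mb, against the distance from Shank2 in Mb, with negative distances before its start. Gm26793 (-3.87) and Bc1 (1.70) are the called genes among them, and Gm4459 (2.35 ± 1.31), with a wide SE, lies above Bc1. The 11 genes tested beyond the end of Shank2 lie within 876.3 kb.

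The 10 genes per direction with the smallest p were looked at, of which those beyond the 4 calls and Ccnd1 had limma adjusted p of 0.148 or more and did not pass. Among those higher in WT-Mem, Ephb1, a receptor for B-type ephrins that guides axons and shapes spines, had 1999, 1905 and 1939 in WT-Mem against 1463, 1508 and 1580 in KO-Veh (0.36 ± 0.06). Hs3st2, a neuronal heparan sulfate sulfotransferase, lay at 1025 to 1082 in WT-Mem against 749 to 826 in KO-Veh (0.41 ± 0.07). Mapk11, the p38 beta stress kinase, lay at 1304 to 1474 and 915 to 1080 (0.46 ± 0.08). These 3 neuronal or signalling genes and the next 3 were each free of overlap between the groups.

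Adam8, a membrane metalloprotease, had 231, 154 and 167 in WT-Mem against 96.0, 89.1 and 69.6 in KO-Veh, or 2.14-fold when converted from the log2 difference. Its gene is also near Shank2, at -4.009 Mb, where the minus sign means before the start of Shank2. Ugt8a, which makes the myelin lipid galactosylceramide, lay at 4643 to 4829 and at 3806 to 4037 (0.28 ± 0.05). Chrdl1, a secreted antagonist of bone morphogenetic proteins made by astrocytes, lay at 327 to 364 and at 232 to 241 (0.52 ± 0.10). Hspa1b is given with the heat shock genes. For each of these 7 genes the value without KO-Veh replicate 3 had the same sign and was between 0.27 (Ugt8a) and 0.96 (Adam8).

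Among those lower in WT-Mem, Uba7, the activating enzyme for the interferon-induced modifier ISG15, had 78.2, 68.7 and 70.1 in WT-Mem against 157, 154 and 132 in KO-Veh (-1.02 ± 0.15, limma adjusted p = 0.148). WT-Veh mice lay at 109 to 228, on either side of the KO-Veh range, so the WT-Mem values lay below those of both vehicle groups. WT-Mem minus WT-Veh was -1.09 ± 0.24 and WT-Veh minus KO-Veh was 0.07 ± 0.23, in fits that share the WT-Veh mice, and neither passed the adjusted threshold. Gli1, a transcription factor and target of Hedgehog signalling, had 105 to 125 in WT-Mem against a tight 195 to 199 in KO-Veh (-0.75 ± 0.13). Etnppl, an astrocytic enzyme that breaks down phosphoethanolamine, had 899, 933 and 941 in WT-Mem against 1282, 1172 and 1476 in KO-Veh (-0.50 ± 0.09). Fam3a, a member of a cytokine-like family, had 425 to 481 and 583 to 644 (-0.45 ± 0.09), with WT-Veh (488 to 583) between them.

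The others are less well defined. A730063M14Rik, a non-coding RNA, had 23.6 to 26.1 in WT-Mem against 49.3 to 66.8 in KO-Veh (-1.21 ± 0.22). Npcd, annotated over Nptxr and Cbx6 on the same strand, had 67.0 to 104 and 135 to 252 (-1.29 ± 0.25), whereas Nptxr (-0.01 ± 0.05) and Cbx6 (0.02 ± 0.05) lay near 0. Gm45062, which spans Umad1 and Glcci1, was listed at 0 in 2 WT-Mem mice and at 15.7 in the other, and at 48.1 to 267 in KO-Veh. Reads of these overlapping models cannot be assigned with certainty, and Umad1 itself differed by -0.00 ± 0.07.

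Immediate early genes, which neurons switch on within minutes of synaptic activity, were mostly higher in WT-Mem. Of 18 tested, 17 were higher and none was called. At an unadjusted limma p under 0.05, 10 were higher and none lower, against 4.71% and 4.23% of all genes. The groups did not overlap for 7, against 7.73% of all genes with WT-Mem on top. The median difference was 0.48, against -0.0006 over all genes. This difference moved with KO-Veh replicate 3, which had the lowest value of the 6 mice for 15 of the 18 genes. Without that mouse the median was 0.25, 15 of 18 were higher and 6 had a p under 0.05, where 2.56% of all 17606 genes tested were higher at that p. Whether the cerebellar RNA of that library contributes was not tested.

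Arc, which removes AMPA receptors from the synapse, had 9858, 6779 and 7416 in WT-Mem against 6213, 4195 and 1403 in KO-Veh. The groups were apart, but the KO-Veh mice spanned a wide range among themselves. The difference was 1.25 ± 0.42, and 0.63 without KO-Veh replicate 3. Fos, a subunit of the AP-1 transcription factor, had 1071, 1177 and 1070 in WT-Mem against 992, 726 and 335 in KO-Veh (0.83 ± 0.30, and 0.38 without KO-Veh replicate 3). Fosl2, another AP-1 subunit and the gene with the smallest p of this group, had 1444, 1311 and 1279 against 1208, 848 and 745 (0.55 ± 0.15). Its difference without KO-Veh replicate 3 was 0.41.

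Fosb differed by 0.84 ± 0.26 and the zinc finger factor Egr4 by 0.60 ± 0.18, with both groups apart in each. Egr1 had 11100, 9894 and 11205 in WT-Mem against 9590, 7935 and 5058 in KO-Veh (0.56 ± 0.18). Members whose groups overlapped were Npas4 (0.49 ± 0.34), an activity-dependent factor that sets inhibitory synapses, and Nr4a1 (0.68 ± 0.29). Jun was the only member lower in WT-Mem, by -0.07 ± 0.07. WT-Veh mice spread as widely as KO-Veh mice, with 2598, 6948 and 11896 for Arc, whereas the 3 WT-Mem mice were close together (medians over the list of 0.34, 0.30 and 0.28 above the mean of the 12 mice).

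ER chaperones fold secreted and membrane proteins, and the unfolded protein response raises their transcription through ATF6 and XBP1 at the ER stress response element, ERSE. Of the 24 genes tested in this list, 23 were higher in WT-Mem and none was called. At an unadjusted limma p under 0.05, 15 were higher and none lower, against 4.71% and 4.23% of all genes. The groups did not overlap for 11 genes, each with WT-Mem on top, against 7.73% of all genes. The median difference was 0.23. The paper annotated its genes differing between vehicle-treated KO and WT mice to the ER and the unfolded protein response. That comparison used the same KO-Veh mice, so these counts are not independent of it. Without KO-Veh replicate 3 the median was 0.20 and 23 were still higher, 11 of them at a p under 0.05, so the direction did not rest on that library.

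Calr, a calcium-binding lectin chaperone, had 9454, 9962 and 10709 in WT-Mem against 8359, 8402 and 7333 in KO-Veh (0.32 ± 0.07). Pdia4, a protein disulfide isomerase, had 1173, 1470 and 1428 against 980, 1087 and 770 (0.53 ± 0.13). Hspa5, the Hsp70 of the ER known as BiP, had 7898, 9844 and 10124 against 7555, 7627 and 5705 (0.42 ± 0.12). In all 3, every WT-Mem mouse was above every KO-Veh mouse and KO-Veh replicate 3 was the lowest. Xbp1, the transcription factor of the response, had 1847, 1936 and 2216 against 1557, 1739 and 1297 (0.39 ± 0.11).

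Pdia6 (0.37 ± 0.10), Hsp90b1 (0.23 ± 0.07) and Pdia3 (0.23 ± 0.06) were also free of overlap. The sensors of the response showed smaller values, with 0.12 ± 0.09 for Atf6, 0.03 ± 0.08 for Eif2ak3 and -0.13 ± 0.11 for Ern1, the only member that was lower. WT-Veh mice were at the level of WT-Mem mice: the list's median was 0.02 for WT-Mem minus WT-Veh, and 0.24 for WT-Veh minus KO-Veh, in fits that share the WT-Veh mice. For Calr these values were -0.13 and 0.46, and for Hspa5 0.04 and 0.38.

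The promoters of these chaperones are shown because several carry the ERSE. The motif, CCAAT and CCACG with any 9 bases between them, was searched on both strands in RefSeq windows from 250 bases before to 50 after each gene start (GRCm38.p6). Of the 24 genes, 21 matched a window, and 8 of these 21 windows (38.1%) held the motif, against 39 of all 32851 windows (0.119%). The 8 were Calr, Canx, Creld2, Dnajc3, Hsp90b1, Hspa5, Pdia6 and Syvn1. In the stretches below, each read 5′ to 3′ on the strand of the gene and ending before its start, the fixed letters of the motif are in capitals, also where it lies on the other strand. No factor binding was measured.
Hspa5, chr2:34772005-34772063, plus strand: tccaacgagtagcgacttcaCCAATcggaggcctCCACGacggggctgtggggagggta
Pdia6, chr12:17266471-17266529, plus strand: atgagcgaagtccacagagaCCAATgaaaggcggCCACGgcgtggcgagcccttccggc
Calr, chr8:84847055-84847113, minus strand: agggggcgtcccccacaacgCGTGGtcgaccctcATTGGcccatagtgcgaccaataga
Hsp90b1, chr10:86705513-86705676, minus strand: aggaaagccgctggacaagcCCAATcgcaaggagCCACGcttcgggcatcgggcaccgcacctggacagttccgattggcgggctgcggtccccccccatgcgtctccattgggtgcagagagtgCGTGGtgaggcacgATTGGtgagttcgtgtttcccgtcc
Members that hold the motif ranged from 0.08 ± 0.06 for Syvn1 and 0.12 ± 0.05 for Canx to 0.49 ± 0.16 for Creld2. Xbp1 and Pdia4, with differences among the larger ones, were not among the 8.

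Heat shock genes, which encode chaperones mostly of the cytosol and, with Hspd1 and Hspe1, of mitochondria, are known targets of HSF1 at heat shock elements. All 17 tested were higher in WT-Mem, none was called, and 8 had an unadjusted limma p under 0.05, against 4.71% of all genes. The groups did not overlap for 7, against 7.73% of all genes with WT-Mem on top. The median difference was 0.15, and 0.14 without KO-Veh replicate 3, with 16 higher and 6 at a p under 0.05. Hspa1b, an inducible Hsp70, had 487, 519 and 562 in WT-Mem against 339, 326 and 393 in KO-Veh (0.57 ± 0.10, limma adjusted p = 0.356). It shares most of its sequence with Hspa1a (0.31 ± 0.11), so reads could be split between them.

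Hspa8, the constitutive Hsp70 and one of the most abundant transcripts of the list, had 61451, 59966 and 61242 in WT-Mem against 56034, 51569 and 51413 in KO-Veh (0.20 ± 0.05). Cryab, a small heat shock protein of glia, had 1861, 1701 and 2172 against 1428, 1649 and 1301 (0.39 ± 0.11). Both were free of overlap, as were Dnajb1 (0.24 ± 0.06) and Hsph1 (0.35 ± 0.11), cochaperones of Hsp70. Hsf1 itself differed by 0.12 ± 0.08. In fits that share the WT-Veh mice, the list's median was -0.06 for WT-Mem minus WT-Veh and 0.23 for WT-Veh minus KO-Veh.

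The heat shock element, searched on both strands as GAA, TTC and GAA with any 2 bases between neighbours, was in 4 of 17 windows of 12 matched genes (Hspd1, Hspe1 and Hsph1) and in 198 of all 32851 windows (0.603%). Hspd1 and Hspe1 encode the mitochondrial Hsp60 and Hsp10 and face away from each other, so their windows share the same stretch. It is shown for its pair of overlapping matches, one on each strand, whose fixed letters are in capitals.
Hspe1, chr1:55088039-55088096, plus strand: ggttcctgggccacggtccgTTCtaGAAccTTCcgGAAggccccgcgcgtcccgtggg
Hspe1 differed by 0.15 ± 0.08 and Hspd1 by 0.12 ± 0.05. Among the 14 immediate early genes with windows, the CArG box of serum response factor was in 4 of 18 windows, all of them overlapping windows of Egr2, and in 1.63% of all windows. The cAMP response element, TGACGTCA, was in 2 of the 18, of Btg2 and Dusp1, and in 1.79% of all.

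**Figure D4:**
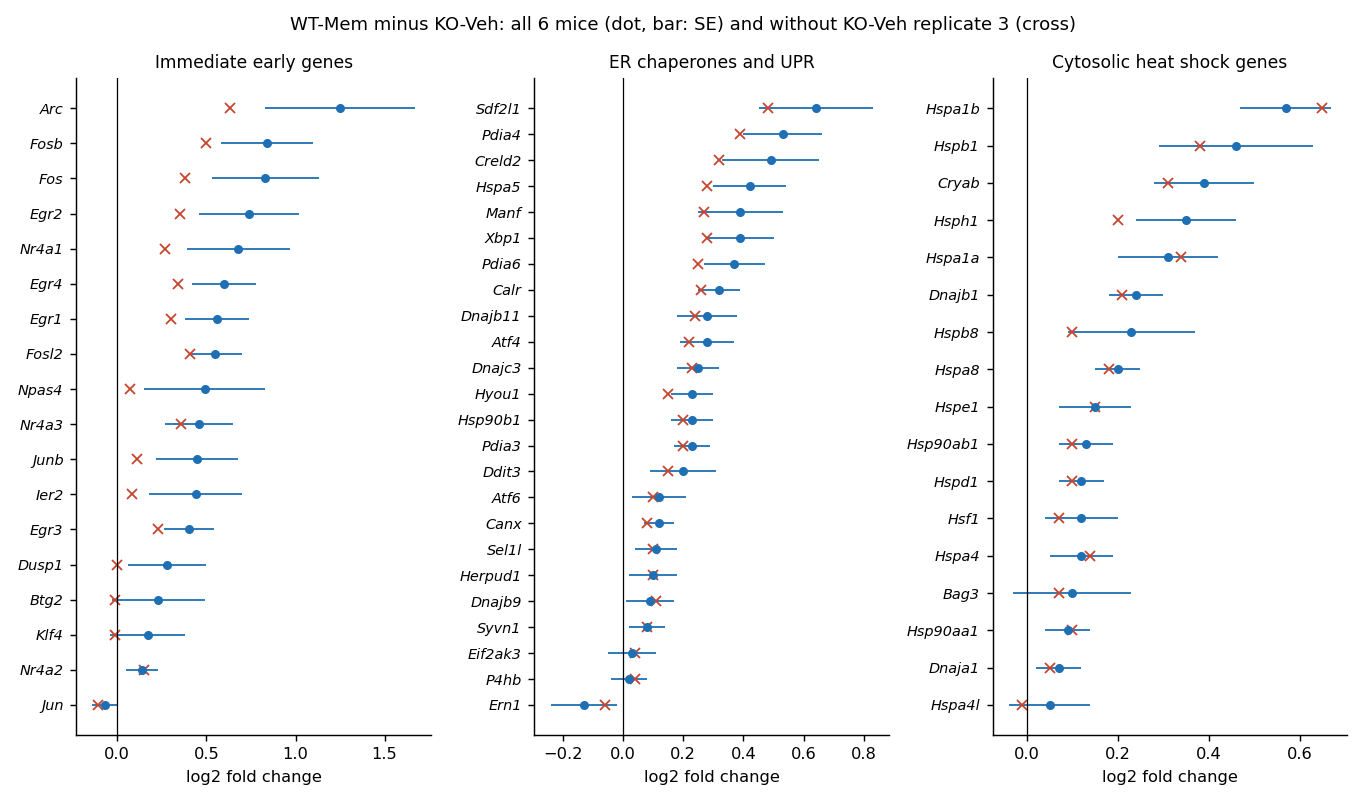
Log2 fold change of WT-Mem minus KO-Veh for each immediate early gene, ER chaperone or unfolded protein response (UPR) gene and heat shock gene, as dots with SE over all 6 mice and as crosses without KO-Veh replicate 3. The crosses of the immediate early genes move toward 0 (Arc from 1.25 to 0.63), whereas those of the other lists mostly stay within the SE of their dots.

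Cytosolic ribosomal protein genes were higher in WT-Mem for 73 of 79 tested, with a median difference of 0.10, none called and 5 at an unadjusted limma p under 0.05. Genes of the nuclear-encoded respiratory chain, the complexes that make ATP in mitochondria, were higher for 75 of 78, with a median of 0.11, none called and 11 at that p. Over all genes, 4.71% were higher at that p. Both medians rested largely on 1 library. The median deviation of the ribosomal genes from their mean over the 12 mice was 0.20 in WT-Mem replicate 3, against -0.02 and -0.04 in the other WT-Mem mice and -0.07 to -0.01 in KO-Veh. For the respiratory chain it was 0.24 in WT-Mem replicate 3, against -0.01 and -0.00 in the other WT-Mem mice and -0.07 to 0.01 in KO-Veh. Without that mouse the medians were 0.02 and 0.03, and 2 ribosomal and 0 respiratory chain genes had a p under 0.05. Without KO-Veh replicate 3 the medians were 0.09 and 0.10, with 3 and 0 genes at that p.

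Among the members with the smallest p, Rpl27a had 1722, 1659 and 1808 in WT-Mem against 1401, 1651 and 1421 in KO-Veh (0.22 ± 0.08). Rpl31 differed by 0.22 ± 0.08. Atp5e, a small subunit of ATP synthase, had 1314, 1356 and 1685 against 1097, 1350 and 1038 (0.32 ± 0.12), Ndufa1 of complex I differed by 0.23 ± 0.09 and Atp5d of ATP synthase by 0.19 ± 0.07. Small ribosomal and respiratory genes share sequence with many processed pseudogenes, so their levels carry that uncertainty. Mitochondrial ribosomal protein genes were higher for 61 of 78, with a median of 0.07 (0.01 without WT-Mem replicate 3), and Mrps25 (0.27 ± 0.08), Mrps36 (0.37 ± 0.12) and Mrps21 (0.30 ± 0.10) had groups that did not overlap.

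Of the 13 mitochondrially encoded subunits, 11 were higher, with a median of 0.10. Their differences ran from -0.64 to 0.55, so the largest in size was in a member lower in WT-Mem. At an unadjusted limma p under 0.05, 1 was higher and 0 lower, against 4.71% and 4.23% of all genes. Without KO-Veh replicate 3 the median was 0.16, with 4 higher and 1 lower at that p. mt-Atp6 had 28348, 28981 and 31675 in WT-Mem against 12421, 25351 and 26334 in KO-Veh (0.55 ± 0.23), where KO-Veh replicate 1 alone was low, and 0.20 without that mouse. mt-Co3 (0.47 ± 0.21) was low in KO-Veh replicate 2 alone, at 31175 against 58539 and 63085, and was 0.14 without that mouse, and mt-Nd2 differed by 0.20 ± 0.09.

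**Figure D5:**
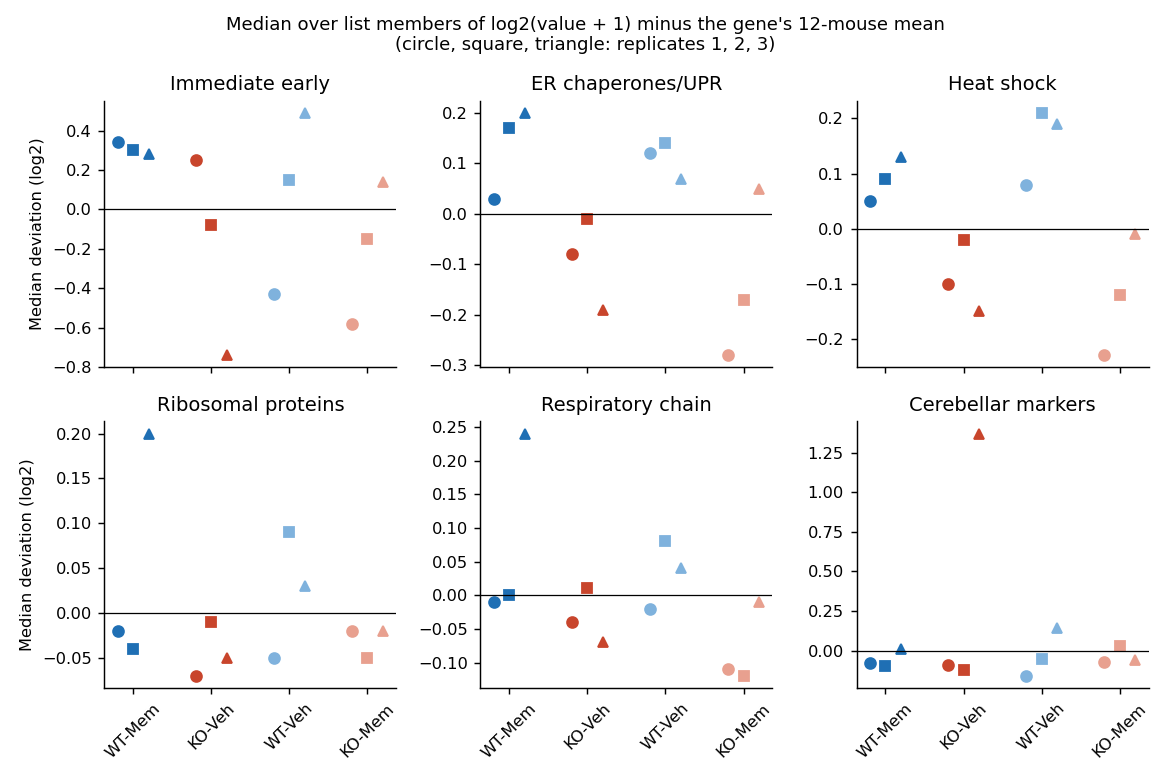
Median over the members of each list of the log2 value minus the gene's mean over the 12 mice (y axis, log2), for each mouse by group, with circles, squares and triangles for replicates 1, 2 and 3. WT-Mem replicate 3 is alone at 0.20 and 0.24 for ribosomal and respiratory chain genes, KO-Veh replicate 3 is alone at 1.37 for cerebellar markers and lowest at -0.74 for immediate early genes, and the 3 WT-Mem mice are above the 3 KO-Veh mice for ER chaperones and heat shock genes.

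Subunits of the NMDA receptor, the target of memantine, held no call. Of 7 genes, 3 were higher, 4 were lower, none had an unadjusted limma p under 0.05, and the median was -0.02 (0.07 without WT-Mem replicate 3). Grin1, the obligatory subunit, had 22198, 21872 and 21791 in WT-Mem against 22119, 22147 and 21582 in KO-Veh (0.00 ± 0.05). Grin2b, the subunit prevalent early in life, had 19341, 19924 and 12721 against 19460, 17887 and 18921 (-0.14 ± 0.14), with WT-Mem replicate 3 alone low. Grin2a, which replaces it with age, had 6557, 6378 and 4722 against 5998, 5785 and 5923 (-0.02 ± 0.11). Without WT-Mem replicate 3 these differences were 0.07 and 0.13. Grin2c (0.08 ± 0.06), Grin3b (0.64 ± 0.41, with values of 11.5 to 39.8) and Grin3a (-0.08 ± 0.07) had the smallest p of the family.

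Among the 14 scaffold genes of the postsynaptic density other than Shank2, 9 were higher, the median was 0.04 and none was called. At an unadjusted limma p under 0.05, 3 were higher and none lower, against 4.71% and 4.23% of all genes. The groups did not overlap for 4, each with WT-Mem on top, against 7.73% of all genes. Without KO-Veh replicate 3 the median was 0.02 with 1 gene at that p, and without WT-Mem replicate 3 it was 0.10. Homer1, the partner that couples Shank proteins to metabotropic glutamate receptors and has an activity-induced short form, had 5417, 5349 and 4884 in WT-Mem against 4734, 4143 and 3623 in KO-Veh (0.33 ± 0.09, and 0.23 without KO-Veh replicate 3). Dlgap3 (0.15 ± 0.05) and Dlgap4 (0.12 ± 0.05), which encode SAPAP proteins that bind Shank, were also free of overlap. Dlg4, which encodes PSD-95, differed by 0.10 ± 0.06.

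Of 9 AMPA and kainate receptor subunits, 7 were lower, with a median of -0.06 (0.01 without WT-Mem replicate 3) and Grik4 (-0.18 ± 0.07) at an unadjusted limma p under 0.05, followed by Gria1 (-0.11 ± 0.06) and Gria2 (-0.11 ± 0.09, and 0.01 without WT-Mem replicate 3). Of 7 metabotropic glutamate receptors, 5 were lower (median -0.06, and 0.00 without WT-Mem replicate 3, which was alone low at a median deviation of -0.19 against 0.10 and 0.11), and Grm2 (0.22 ± 0.09) was at that p and Grm7 (-0.08 ± 0.08) was not. Of 15 GABA-A subunits, 8 were lower (median -0.01, and 0.05 without WT-Mem replicate 3), and Gabrd, the subunit of extrasynaptic receptors, had 1832, 1949 and 1971 in WT-Mem against 1630, 1698 and 1512 in KO-Veh (0.25 ± 0.07). Gabra6 and Gabra2 (-0.12 ± 0.07) followed in order of p, of which Gabra6 is the cerebellar marker of KO-Veh replicate 3.

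Of 15 serotonin and dopamine receptors, 8 were lower (median -0.04). Htr2c, a serotonin receptor that signals through phospholipase C, had 2199, 2358 and 2299 in WT-Mem against 2812, 2511 and 2852 in KO-Veh (-0.25 ± 0.07). Htr3a, the serotonin-gated channel of a class of interneurons, had 194, 216 and 192 against 324, 225 and 302 (-0.48 ± 0.15). Both were free of overlap, neither was called, and Htr1d (0.43 ± 0.23) overlapped.

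The remaining lists held no called gene. Cholesterol synthesis genes were higher for 18 of 22 (median 0.10, and 0.04 without KO-Veh replicate 3), led by Idi1 (0.32 ± 0.08), Hmgcs1 (0.20 ± 0.07) and Msmo1 (0.24 ± 0.09). Collagens and basement membrane genes split evenly (30 of 58 higher, median 0.03). Hspg2, the basement membrane proteoglycan perlecan, had 1327, 1164 and 1350 in WT-Mem against 788, 1049 and 884 in KO-Veh (0.50 ± 0.11), followed by fibronectin, Fn1 (0.27 ± 0.07), and Col4a2 (0.25 ± 0.07), a chain of collagen IV. At an unadjusted limma p under 0.05, 4 of the 58 were higher and 4 lower, against 4.71% and 4.23% of all genes. The lower ones were Col23a1 (-0.24 ± 0.08), Col5a1 (-0.29 ± 0.09), Sparc (-0.34 ± 0.12) and Col5a3 (-0.42 ± 0.16). Proteoglycans of the perineuronal net were higher for 7 of 14 (median 0.02), with Ncan (0.22 ± 0.07), Hapln4 (0.17 ± 0.07) and Hapln1 (0.17 ± 0.10) first in order of p.

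Chromatin remodelers were lower for 21 of 24 (median -0.06), with Ep300 (-0.25 ± 0.08), Chd8 (-0.18 ± 0.08) and Ep400 (-0.20 ± 0.10) first. Chromatin methyltransferases and demethylases were lower for 19 of 28 (median -0.06), with Kdm6a (-0.20 ± 0.09), Setd5 (-0.16 ± 0.07) and Kdm5c (0.15 ± 0.07) first. Each of these lists held 2 lower genes at an unadjusted limma p under 0.05, against 4.23% of all genes, and 0 without KO-Veh replicate 3. WT-Mem replicate 3 was alone low, with median deviations of -0.12 for remodelers and -0.17 for methyltransferases and demethylases against -0.03 to 0.00 in the other WT-Mem mice. Without it the medians of the differences were -0.03 and -0.01, and without KO-Veh replicate 3 they were -0.05 and -0.03. Spliceosome genes lay at a median of 0.00, with 21 of 40 higher, and Srsf5 (-0.13 ± 0.06), Srsf7 (0.11 ± 0.06) and Snrpg (0.20 ± 0.11) first.

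Circadian clock genes were lower for 11 of 18 (median -0.03), with Bhlhe41 (-0.26 ± 0.09), Rorb (0.19 ± 0.08) and Cry1 (0.18 ± 0.08) first. Glucocorticoid-responsive genes were higher for 9 of 15 (median 0.05), and Cdkn1a (0.27 ± 0.12), Tsc22d3 (0.27 ± 0.12) and Mt2 (0.41 ± 0.21) all overlapped between the groups. Hemoglobin genes had a median of 0.10, which was -0.25 without KO-Veh replicate 3, since that mouse was low in all of them: Hbb-bs had 4163, 4483 and 4942 in WT-Mem against 4534, 6326 and 2639 in KO-Veh. Hbb-bt differed by 0.58 ± 0.43 (-0.04 without KO-Veh replicate 3) and Hba-a2 by 0.19 ± 0.26 (-0.18).

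No cell type marker was called in this comparison. In bulk tissue, fewer cells of a type and less RNA per cell cannot be told apart. Endothelial markers were higher for 8 of 9 (median 0.13), and the tight junction gene Cldn5 had 1313, 1294 and 1788 in WT-Mem against 1286, 1109 and 1081 in KO-Veh (0.33 ± 0.12). Their summed value was 7971 to 8468 in WT-Mem against 7079 to 7618 in KO-Veh. Markers of oligodendrocyte precursors had a median of 0.10 (0.04 without WT-Mem replicate 3), and Gpr17, a receptor of differentiating precursors, had 6134, 5892 and 5657 against 5107, 4978 and 4403 (0.29 ± 0.07). Myelin genes were higher for 9 of 11 (median 0.11, and 0.06 without WT-Mem replicate 3, which was highest), although Aspa, the aspartoacylase of oligodendrocytes, was lower (-0.37 ± 0.14).

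Microglial markers were higher for 8 of 10 (median 0.11), and astrocyte markers for 7 of 11 (median 0.05). Of 8 interneuron markers 5 were higher, and 2 were lower at an unadjusted limma p under 0.05 (1 without KO-Veh replicate 3). Over all genes, 4.23% were lower at that p. Of these 2, Lhx6, a factor of interneurons from the medial ganglionic eminence, had 625, 523 and 558 in WT-Mem against 738, 689 and 742 in KO-Veh (-0.35 ± 0.09), and Vip, a peptide of another interneuron class, had 520 to 530 and 560 to 703 (-0.28 ± 0.10). Tcf7l2, a factor of the thalamus, had 922 to 989 and 1116 to 1180 (-0.26 ± 0.07). None of these passed the test, and the medians of the interneuron, thalamic and forebrain lists were 0.02, -0.05 and 0.06.

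The reverse pairing, WT-Veh against KO-Mem (WT-V/KO-M), shares no mouse with WT-M/KO-V and puts memantine on the KO side. There 362 of 17662 genes rose in WT-Veh (2.05%) and 233 fell (1.32%) by limma at adjusted p under 0.05. That count varied widely with single mice: it was 54, 3 and 4 without WT-Veh replicate 1, 2 or 3, and 1, 1 and 2490 without KO-Mem replicate 1, 2 or 3. Of 17399 genes tested in both, 11857 (68.1%) had the same sign, as had 1382 of the 1569 with an unadjusted limma p under 0.05 in WT-M/KO-V (88.1%) and 825 of the 839 with such a p in both. Of the 20 named genes, 18 had the same sign. All 12 mice were scaled together, and genes are not independent of each other, so these shares are descriptions.

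Shank2 differed by 1.47 ± 0.08 in WT-V/KO-M, Bc1 by 1.36 ± 0.26, Gm26793 by -3.78 ± 0.36 and Ccnd1 by 0.95 ± 0.12, all called there, whereas Itpr3 differed by -0.26 ± 0.15 (limma adjusted p = 0.306). The medians of the lists were 0.30 for immediate early genes, 0.28 for ER chaperones, 0.27 for heat shock genes, 0.05 for ribosomal proteins and 0.11 for the respiratory chain. Calr (0.82), Cryab (1.06) and Hsph1 (0.84) were called in that pairing. Cholesterol synthesis genes (median 0.44, with 8 of 22 called higher) and myelin genes (median 0.51, with 8 of 11 called higher) had larger values there than the 0.10 and 0.11 of WT-M/KO-V.

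A fit over all 12 mice tested the difference between the pairings for each of 17655 genes. It equals WT-Mem minus WT-Veh plus KO-Mem minus KO-Veh, so it sums the memantine differences of both genotypes. For it limma called 0 genes after Benjamini-Hochberg adjustment (smallest adjusted p = 0.373), with 1532 at an unadjusted p under 0.05. Uba7, the named gene with the smallest p for this difference, had -1.02 in WT-M/KO-V and 0.58 in WT-V/KO-M (difference -1.60, limma adjusted p = 0.373). For Itpr3 the difference between the pairings was -0.76 (limma adjusted p = 0.407). In both pairings, 14 genes had an unadjusted limma p under 0.05 with opposite signs. Among them, Cry1 and Vgf were higher and Aspa and Serping1 lower in WT-Mem. Opposite signs put each memantine-treated group on the same side of the vehicle-treated group in its pairing. That shared side therefore follows from how the 14 were chosen and is no result about memantine. Vgf, a neuropeptide precursor induced by activity, had 5991, 5442 and 6661 in WT-Mem against 5608, 5049 and 5140 in KO-Veh. WT-Veh mice had 5052, 5624 and 5666 and KO-Mem mice 7263, 7251 and 5294, so 1 KO-Mem mouse lay within the WT-Veh range. Cry1, a repressor of the clock, had 619 to 689 in WT-Mem against 660 to 744 in KO-Mem, against 564 to 587 in KO-Veh and 590 to 618 in WT-Veh.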

How the data were processed

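Poly-A RNA of 12 mice, 3 per group and 1 mouse per library, was sequenced paired-end with a kit not described as marking strand. The deposited values are normalised signal values per gene: the authors estimated transcript abundance with Salmon 1.1.0 on GRCm38, summed it to genes and divided it by DESeq2 1.26.0 size factors in R 3.6.2, per the submitters' processing notes. The authors' methods name other versions of both tools. They are not raw counts, so no count model was used, and total depth is known only through the value of 1 read, which limits the precision of low genes.

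Values were tested as log2(value + 1) with limma 3.58.1 (R 4.3.3, variance trend, moderated SE) on the 6 mice of the comparison, over genes with a mean of 10 or more, with two-sided p-values and Benjamini-Hochberg adjustment over all genes tested and a threshold of 0.05. The test was tested on simulated data. The simulation gave every gene the same dispersion (spread beyond counting noise) and held no library that stood apart. It therefore does not cover the libraries that stand apart here. Fold changes on this scale understate those of low genes. Replicates are separate mice.

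The text names all called genes, those with the smallest p to make 10 per direction, Shank1, Shank3 and the NMDA receptor subunits, the 3 members with the smallest p of each pathway list and the 3 genes with the smallest p within 20 Mb of Shank2. Other members described were chosen after their values were seen. Some genes that the rule names are not reported here. Members and lists were chosen with earlier results of these data known. The 9 hindbrain Hox symbols matched no row of the table and were not analysed here. GENCODE M21 matched 19295 of 19312 genes. Figures and motif searches used Python 3.11.15, pandas 2.3.3 and matplotlib 3.10.9. Alternatives were other pseudocounts, filters, normalisation, variance models, the replicate block, all 12 mice, and leaving out each mouse.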

Additional observations from a re-analysis of the deposited data

How the results depend on the processing

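Pseudocounts of 0.5 and 5, no filter on low values, quantile normalization and a fit on all 12 mice gave the same 4 calls. A filter at a mean of 50 left 3, with 1 lower gene, since Gm26793 was not tested. Without a variance trend there were 0 calls, 0 higher and 0 lower, with 1411 genes at an unadjusted limma p under 0.05. With the replicate block there were 2 (Bc1 and Shank2), with 0 lower. Deviations of same-numbered mice correlated at r of 0.030, -0.022 and -0.016, and those of the other pairs at -0.031 to 0.045. With so few mice these values cannot decide whether the numbers pair the mice. Leaving out 1 mouse gave 1 to 5 calls, 1 to 3 higher and 0 to 2 lower, with 1 without KO-Veh replicate 3.

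Higher genes at an unadjusted p under 0.05 without a variance trend were 3 of the immediate early list, 1 of the respiratory chain and 0 of the ribosomal proteins. In the fit on 12 mice they were 7 of the respiratory chain and 3 ribosomal, with the replicate block 5 and 3, and with quantile normalization 2 ribosomal. Leaving out 1 mouse gave 6 to 13 immediate early, 5 to 9 heat shock, 0 to 17 respiratory chain and 1 to 10 ribosomal genes, and a heat shock median of 0.14 to 0.21.

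WT-V/KO-M gave 2065 calls in the fit on 12 mice, 7 without a variance trend, 999 with the replicate block, and 1 to 2490 without 1 mouse. Signs turned for Grin1 (-0.03 with quantile normalization, -0.01 to 0.01 without 1 mouse). Without 1 mouse Grin2b ran from -0.26 to 0.07, Grin2a from -0.10 to 0.13, Gria2 from -0.18 to 0.01, Hbb-bt from -0.04 to 1.11, Hba-a2 from -0.18 to 0.48 and Hbb-bs from -0.25 to 0.39. The causes were not tested. The 12-mouse test between the pairings and the fit without KO-Veh replicate 3 and without cerebellar markers were chosen after seeing the data. Of the gene differences recomputed, 1240 kept their sign and side of the threshold, 18 lost a call, 2 gained one and 9 turned sign.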
